A study of Mus musculus with 15 samples.

Results

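The low-coordinate ends of the 19 mouse autosomes were followed in 4C-seq, a chromosome conformation capture assay that sequences circularised ligation products and so counts ligations between 1 chosen genomic site, the bait, and HindIII sites elsewhere. The members are all HindIII sites below 5 Mb in the mm9 build, 12425 of 769222 autosomal sites. A bait's own chromosome was left out for that bait. This gave 11747 sites for the Pparg bait, 11848 for Lpin1 and 11704 for Ifng, on 18 ends each. The sites were chosen by position alone, and the lowest one lay just past 3 Mb on every autosome, so each end spans close to 2 Mb.

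Mouse chromosomes are telocentric: the centromere sits at the low-coordinate end, next to long arrays of major and minor satellite repeats. In interphase nuclei the satellite blocks of several chromosomes gather into chromocentres, clusters of constitutive heterochromatin that often lie at the nuclear periphery or around nucleoli. The satellite itself is hard to map with short reads, so the sites read here are the nearest mapped DNA beyond it.

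The study used 3 baits. Pparg encodes a nuclear receptor needed to form adipocytes, Lpin1 a phosphatidate phosphatase of lipid synthesis, and Ifng the lymphocyte cytokine interferon gamma. The Pparg bait was on chromosome 6 (115369246 to 115369251 bp), the Lpin1 bait on chromosome 12 (16597111 to 16597116 bp) and the Ifng bait on chromosome 10 (117870359 to 117870364 bp). They were 112.4, 13.6 and 114.9 Mb from the first HindIII site of their own chromosomes, so Lpin1 was the bait nearest to its own low end. Each bait was read in 3T3-L1, a mouse fibroblast line, at day 0 (post-confluent cells kept in calf serum) and at days 1, 2 and 6 after induction into adipocytes. Induction began at day 0 with FCS, dexamethasone, 3-isobutyl-1-methylxanthine and insulin, was followed by FCS with insulin from day 2, and ended in FCS alone. Each bait and day had 2 libraries, and a B lymphocyte line, for which the labels give no such treatment, had 1 library per bait. All cells were fixed with formaldehyde before digestion. The assay reads DNA and no transcript, so the cell lines could not be checked by expressed markers.

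A site with at least 1 read was called captured. The captured share of a set of sites was divided by the captured share of the sites from 5 Mb up on the same autosomes in the same library, and this ratio is called the multiple. A multiple of 1 is the autosomal level. Dividing within a library scales out its overall depth, though not fully where a large share of a set of sites is captured. Depth differed widely: 116031 to 3002206 reads in all, 13067 to 697525 reads on the autosomes away from the bait, and 3197 to 56201 captured sites there. Between 42 and 683 low-end sites were captured per library. Sites with 1 read made up 14.2% to 74.1% of captured sites. HindIII sites were about as dense in the low ends (327 per Mb) as elsewhere on the autosomes (318 per Mb).

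The 3 baits captured the low ends at different rates. Lpin1 captured them more often than the rest of the autosomes in all 8 3T3-L1 libraries, Ifng less often in all 8, and Pparg lay near or below the autosomal level. For Lpin1 the multiple was 1.42 and 1.22 in the day 0 libraries (replicates 1 and 2), 1.41 and 1.54 at day 1, 1.30 and 1.54 at day 2, and 1.54 and 1.49 at day 6. Its mean was 1.43 ± 0.120 (SD, n = 8), from captured shares of 0.684% to 5.14% in the ends. For Pparg the multiple was 1.07 and 0.903 at day 0, 1.06 and 0.871 at day 1, 0.972 and 0.895 at day 2, and 0.800 and 0.804 at day 6. The Pparg mean was 0.921 ± 0.103 (SD, n = 8), with 2 of 8 libraries above 1. For Ifng the multiple was 0.818 and 0.690 at day 0, 0.705 and 0.646 at day 1, 0.753 and 0.598 at day 2, and 0.627 and 0.606 at day 6. The Ifng mean was 0.681 ± 0.0767 (SD, n = 8).

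Every Lpin1 library lay above every Pparg library. The Pparg and Ifng libraries overlapped only at day 6 of Pparg and replicate 1 of day 0 of Ifng. In B cells the multiple was 0.558 for Pparg, 1.54 for Lpin1 and 0.567 for Ifng, so Lpin1 was again the bait above the autosomal level. When each library was thinned to 13067 reads, the read number of the shallowest one, the 3T3-L1 means were 0.915 for Pparg, 1.47 for Lpin1 and 0.661 for Ifng. The Pparg value crossed 1 when reads were used in place of captured sites (1.01) and when sites never captured in any library were left out (1.01).

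**Figure D1:**
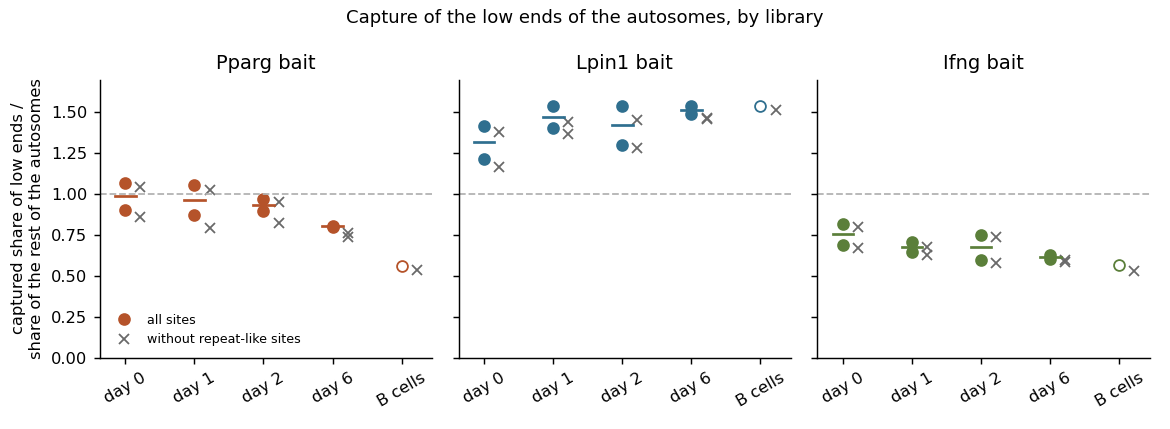
Multiple of the low ends in each library (vertical axis, captured share of low-end sites over that of the other sites of the same autosomes), by bait and by day or cell line (horizontal axis). Filled circles are 3T3-L1 libraries, bars their daily means, open circles the B cell library, and crosses the same library without repeat-like sites. All Lpin1 libraries lie above the dashed line at 1, all Ifng libraries below it, and the Pparg libraries around and under it.

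The ends were set against blocks of 2 Mb tiled over the same autosomes, with at least 50 sites each. For Lpin1, 9 of 18 ends were above 1 in all 8 3T3-L1 libraries, against 15.5% of all blocks, and 1 end was below 1 in all 8, against 28% of all blocks. For Ifng, 12 of 18 ends were below 1 in all 8 libraries, against 43.5% of all blocks, and 1 was above 1 in all 8, against 17.4%. For Pparg, 2 of 18 ends were above 1 in all 8 libraries, against 17.3% of all blocks, and 6 were below 1 in all 8, against 34.2%. The median end stood at 1.48 for Lpin1, where the median block stood at 0.935. It stood at 0.561 for Ifng (median block 0.833) and at 0.808 for Pparg (median block 0.800). The Pparg ends were therefore like the autosomal blocks as a group, while the Lpin1 ends lay above and the Ifng ends below them.

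By steps of 500 kb, the Lpin1 multiple in 3T3-L1 was highest in the step nearest the centromere. It was 1.74 ± 0.335 at 3.0 to 3.5 Mb, 1.31 ± 0.0993 at 3.5 to 4.0 Mb, 1.25 ± 0.170 at 4.0 to 4.5 Mb and 1.45 ± 0.267 at 4.5 to 5.0 Mb (SD, n = 8). Just outside the limit, at 5.0 to 5.5 Mb, it was 1.56 ± 0.367, so the raised capture did not end at 5 Mb. It was 1.30 at 5.5 to 6.0 Mb, 1.06 at 6.0 to 6.5 Mb, and 0.723 and 0.727 in the steps from 9.0 to 10.0 Mb. From 10 to 20 Mb it was 0.909 ± 0.0366. The mean captured share of this bait thus stood above the autosomal level in every step up to 6.0 Mb. At 6.0 to 6.5 Mb it was near that level, with an SD of 0.261 and 4 of 8 libraries above 1.

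The Ifng bait showed the opposite order, with its lowest step nearest the centromere. Its multiple was 0.527 ± 0.0743 at 3.0 to 3.5 Mb, 0.831 ± 0.0988 at 3.5 to 4.0 Mb, 0.724 ± 0.0631 at 4.0 to 4.5 Mb and 0.635 ± 0.126 at 4.5 to 5.0 Mb. It was 0.780 ± 0.111 just outside, and 0.971 and 1.02 in the steps from 5.5 to 6.5 Mb. The Pparg steps were flat, at 0.880 ± 0.106, 0.882 ± 0.143, 0.951 ± 0.142 and 0.970 ± 0.253, with 0.978 ± 0.252 just outside the limit. Farther in, the Pparg multiple was 0.504 ± 0.154 at 7.5 to 8.0 Mb. From 10 to 20 Mb it was 0.654 ± 0.0604, below its value in the ends, and beyond 100 Mb it was 1.24 ± 0.0618.

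The step at 3.0 to 3.5 Mb rested in part on a short stretch of chromosome 11, described further on. Without repeat-like sites this step stood at 1.47 ± 0.228 for Lpin1, 0.673 ± 0.118 for Pparg and 0.436 ± 0.0706 for Ifng. The other 3 steps moved by less than 0.02 for each bait. Without those sites the Lpin1 steps of the ends were close to level, and the Pparg and Ifng steps were lowest nearest the centromere. Outside chromosome 14, the end windows with the lowest share of sites ever captured were first windows, on chromosomes 16 (9.02%) and 13 (10.3%). The first windows of chromosomes 11 and 17 stood at 61.4% and 49.3%, and the median end window at 34.7%. The steps were not repeated over sites ever captured, so the part of this in the lowest step was not tested. In B cells the 4 Lpin1 steps were 1.65, 1.74, 1.48 and 1.30, the Pparg steps 0.479, 0.605, 0.678 and 0.465, and the Ifng steps 0.490, 0.655, 0.704 and 0.411.

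**Figure D2:**
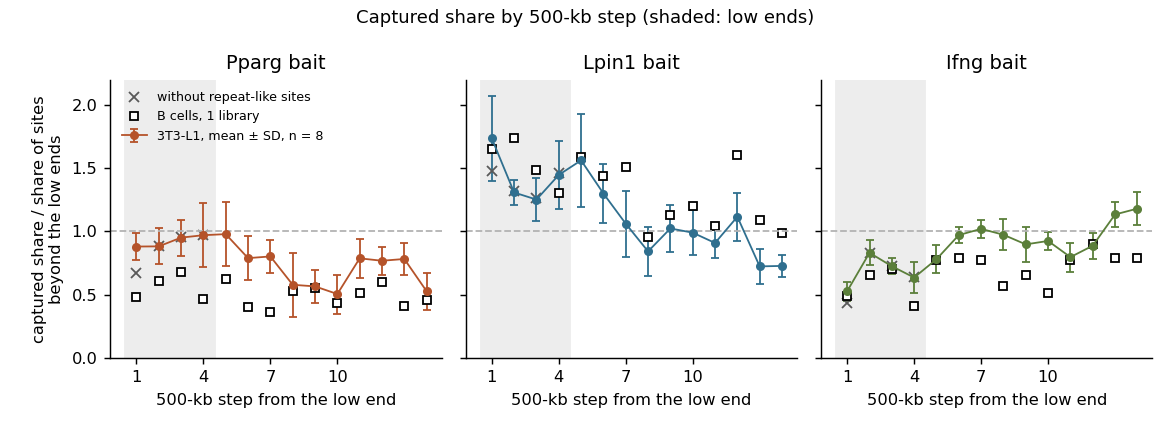
Multiple by 500-kb step from the low end (horizontal axis, step 1 begins at the first mapped sites) for the 3 baits, as mean ± SD over 8 3T3-L1 libraries (filled circles), for the B cell library (open squares) and without repeat-like sites (crosses, steps 1 to 4). The shaded steps are the low ends. Lpin1 starts at 1.74 and its mean stays above 1 through step 7, Ifng starts at 0.527, and Pparg starts at 0.880.

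Single chromosomes departed from the pooled values. Here an end's captured share is divided by that of all the other autosomes in the file. For Pparg the highest ends were those of chromosomes 11 (3.17 ± 0.710), 19 (3.13 ± 1.21) and 16 (1.31 ± 0.417) (SD, n = 8). The chromosome 11 end ranged from 2.06 to 4.17 with a median of 3.26, and the chromosome 19 end from 1.18 to 5.20 with a median of 3.26, so both were above 1 in 8 of 8 libraries. For Lpin1 the same 3 ends were highest: 4.11 ± 1.17 on chromosome 11 (2.79 to 6.06, median 3.72), 2.83 ± 0.552 on 19 (1.90 to 3.82, median 2.85) and 2.11 ± 0.533 on 16 (1.46 to 2.88, median 2.00). For Ifng the highest were 16 (1.93 ± 0.723, from 1.33 to 3.36 with a median of 1.54), 17 (1.21 ± 0.186) and 6 (0.988 ± 0.168). Only the first of these Ifng ends was above 1 in 8 of 8 libraries.

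In the order of genes of the GRCm38.p6 RefSeq table, a later build used here for names alone, the first named protein-coding genes from the low end of chromosome 11 are Sfi1, Eif4enif1, Drg1 and Patz1. Sfi1 encodes a centrosomal protein, and Eif4enif1 a transporter of the translation factor eIF4E. Those of chromosome 19 are Ighmbp2, Mrpl21 and Cpt1a, which encodes the enzyme that admits long-chain fatty acids to mitochondria. Those of chromosome 16 are Olfr161, an olfactory receptor gene, Mefv, which encodes the inflammasome protein pyrin, and Zfp263. Whether these genes lie within the sites counted here was not determined, because no mm9 annotation was used.

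Part of a high end can lie in its whole chromosome. Against the rest of the same chromosome, the chromosome 19 end stood at 2.10 ± 0.780 for Pparg and 1.53 ± 0.327 for Lpin1, and the chromosome 11 end at 2.57 ± 0.496 and 3.54 ± 0.971. The chromosome 16 end under Ifng stood at 0.682 ± 0.160 against the rest of chromosome 16, so chromosome 16 as a whole was captured more often than the other autosomes, and its end less often than the rest of it. The chromosome 6 end under Ifng likewise stood at 0.515 ± 0.0875 against its own chromosome.

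The low ends of chromosome 14 were nearly empty for every bait, with a mean multiple of 0.00539 for Pparg, 0.0475 for Lpin1 and 0.00228 for Ifng. Of its 698 sites, 6 (0.860%) had a read in any of the 27 libraries, against 34.1% of all low-end sites and 37.8% of autosomal sites elsewhere. The empty stretch ran on to 8.5 Mb, over 5.5 Mb: 13 of its 1892 sites ever had a read (0.687%), and in the next 500 kb 42.2% of 135 sites did. In the RefSeq order the first named genes of this end are D830030K20Rik, 2610042L04Rik and 4930555G01Rik, which are uncharacterised gene models. Whether reads could be placed uniquely in this stretch was not tested. In the other 18 ends, 1 of 72 windows of 500 kb had under 10% of its sites ever captured, the first window of chromosome 16 with 12 of 133.

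The other low ends differed by bait. For Pparg they were chromosomes 1 (0.198 ± 0.170), whose first genes are Xkr4, Rp1 and Sox17, and 3 (0.276 ± 0.160), which begins with Hnf4g and Zfhx4. For Lpin1 they were 9 (0.595 ± 0.382) and 10 (0.672 ± 0.265), and for Ifng 13 (0.323 ± 0.0659) and 7 (0.373 ± 0.111). None of the 8 libraries was above 1 at these Pparg and Ifng ends, while 1 of 8 Lpin1 libraries was above 1 at each of its 2. In B cells no site was captured by Pparg at the ends of chromosomes 3 (0 of 666, which allows a share of up to 0.450%), 13 (0 of 678, up to 0.442%) and 14 (0 of 698, up to 0.430%). These limits cover counting error only.

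Over the 16 autosomes that hold no bait, the ends ranked alike for Pparg and Lpin1 (Spearman 0.947 over 16 means) and less alike when Ifng was set against Pparg (0.429) or against Lpin1 (0.409). These correlations are given as a description, since the points share the mapping of the same sites. The Lpin1 mean was above the Pparg mean on 15 of the 16 chromosomes, chromosome 19 excepted.

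**Figure D3:**
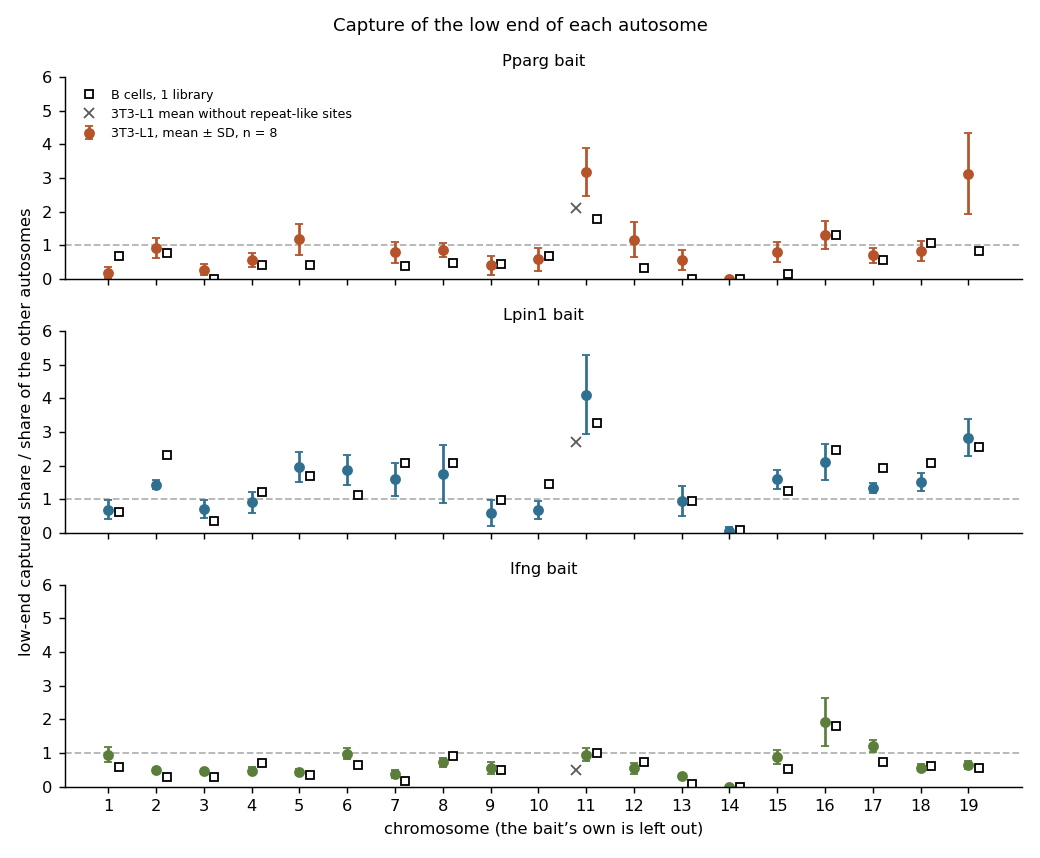
Multiple of the low end of each autosome (vertical axis, captured share over that of the other autosomes) for the 3 baits. Filled circles are means ± SD over 8 3T3-L1 libraries, open squares the B cell library, and the cross on chromosome 11 the 3T3-L1 mean without repeat-like sites. Chromosomes 11 and 19 stand highest for Pparg and Lpin1, chromosome 16 for Ifng, and chromosome 14 is near 0 for all.

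The difference between baits was tested per window with edgeR's quasi-likelihood test on the number of captured sites, over the autosomes that hold no bait, with Benjamini-Hochberg adjustment over all tested windows. The contrasts compare the means of the 4 days in 3T3-L1. Of 44 low-end windows of 500 kb tested for Pparg against Lpin1, 2 passed, both lower for Pparg, against 4.6% of all 3237 windows. The share of end windows called was thus close to the background. The 3.0 to 3.5 Mb window of chromosome 17 had a log2 difference of -1.45 ± 0.38 (SE, adjusted p = 0.0101). Its multiple was 0 to 1.46 under Pparg (median 1.02) and 2.51 to 4.74 under Lpin1 (median 3.68), with no overlap. The first genes of chromosome 17 in the RefSeq order are Scaf8 and Tiam2. The 3.0 to 3.5 Mb window of chromosome 8, whose first gene in that order is the insulin receptor gene Insr, had a log2 difference of -1.35 ± 0.41 (adjusted p = 0.0322). Its multiple was 0 to 1.72 under Pparg (median 0.795) and 0.869 to 4.81 under Lpin1 (median 2.65), and the groups overlapped. DESeq2 called neither (adjusted p = 0.0588 and 0.0912). The count of 2 became 1 to 7 as each library was left out in turn, so at this window size it depends on single libraries.

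Taken as 1 window of 2 Mb, 10 of 15 tested ends passed, all lower for Pparg, against 28.6% of 1005 windows of that size called in either direction. The median log2 difference was -0.66 over the ends and -0.06 over all such windows. DESeq2 and leaving out each library in turn were run at 500 kb alone, so neither checked the count of 10. The end of chromosome 15 had a log2 difference of -0.87 ± 0.20 (edgeR, SE, adjusted p = 0.000363) and that of 18 one of -0.78 ± 0.20 (adjusted p = 0.00107). On chromosomes 1, 8 and 3 it was -1.45 ± 0.39, -0.77 ± 0.21 and -1.24 ± 0.34 (adjusted p = 0.00179, 0.00192 and 0.00212). The ends that did not pass were those of chromosomes 4, 9, 11, 13 and 19. On chromosome 19 the value was 0.12 ± 0.17 (adjusted p = 0.654), and on chromosome 11 it was -0.37 ± 0.18 (adjusted p = 0.118). The end of chromosome 14 held too few captured sites to be tested.

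**Figure D4:**
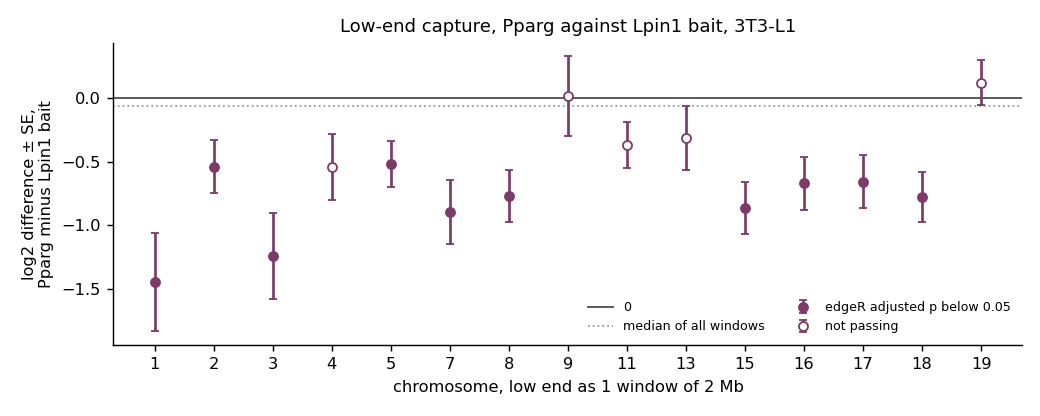
Log2 difference in captured sites between the Pparg and Lpin1 baits in 3T3-L1 (vertical axis, Pparg minus Lpin1, edgeR estimate ± SE) for each low end taken as 1 window of 2 Mb (horizontal axis, chromosome). Filled points passed an adjusted p of 0.05, and the dotted line is the median of all windows. The 10 filled points all lie below 0.

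For Ifng against the mean of Pparg and Lpin1, 28 of 44 low-end windows passed, against 69.4% of all windows, so the share of ends called was close to the background. Of these, 11 were higher and 17 lower for Ifng. Over all windows 1348 were higher and 898 lower. The log2 median was -0.51 over the end windows and 0.30 over all windows. With the size factors of DESeq2 the median of all windows was 1.12, 21 end windows passed, and 14 were higher and 7 lower, so the split depends on the scaling. The order of ends below the rest held in both fits (end median 0.31 in DESeq2).

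The 5 end windows with the smallest p went both ways, and each had the same sign in both fits. The chromosome 1 window at 3.5 to 4.0 Mb was higher for Ifng by 3.41 ± 0.49 (log2, adjusted p = 1.99e-11). Its captured sites, summed over 8 3T3-L1 libraries, numbered 95 for Ifng, 18 for Lpin1 and 5 for Pparg, where 5 of 8 libraries were at 0. These sums are not scaled: over the autosomes away from the bait, the mean library captured 34127, 13215 and 15489 sites. The Lpin1 and Pparg sums fall short of the mean of 3 captured sites per library asked of a window. The window was thus kept through its Ifng libraries, where it is high, and its p is not read as support for the difference. In the Pparg against Lpin1 contrast the fit of this window had no usable SE (log2 difference -1.99 ± 3099). The chromosome 17 window at 4.0 to 4.5 Mb was higher by 1.86 ± 0.34 (adjusted p = 2.06e-07). The chromosome 11 windows at 4.0 to 4.5 and 4.5 to 5.0 Mb were lower for Ifng, with log2 differences of -2.48 ± 0.40 and -2.40 ± 0.41 (adjusted p = 3.03e-09 and 1.79e-08). The chromosome 19 window at 3.5 to 4.0 Mb was lower as well, at -1.74 ± 0.31 (adjusted p = 1.03e-07). Its multiple ranged from 0.407 to 1.13 under Ifng, from 1.51 to 5.32 under Pparg and from 3.03 to 5.15 under Lpin1.

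As windows of 2 Mb, 12 of 15 ends passed for Ifng against the other baits, against 81.5% of all windows, and 10 of these were lower and 2 higher. The share of ends called was close to the background, and all called windows of that size were split into 417 higher and 402 lower. DESeq2, whose scaling turned the split of the end windows at 500 kb, was not run at this size. The ends of chromosomes 19, 11 and 5 were lowest, at -2.16 ± 0.16, -1.81 ± 0.16 and -1.79 ± 0.17 (edgeR, log2 ± SE, adjusted p = 4.82e-32, 5.52e-24 and 8.24e-23). The ends of chromosomes 1 and 17 were higher, at 1.31 ± 0.19 and 0.28 ± 0.14 (adjusted p = 1.80e-10 and 0.0487).

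The first 500 kb of chromosome 11 stood apart. Its multiple was 6.38 ± 1.71 for Pparg (4.43 to 9.12), 9.97 ± 3.73 for Lpin1 (6.17 to 15.9) and 2.78 ± 0.590 for Ifng (2.05 to 3.73), above 1 in 8 of 8 3T3-L1 libraries of each bait. In B cells it was 3.79, 6.76 and 3.18. The window had 132 sites. It held a stretch of 66.8 kb, from 3032987 to 3099775 bp (mm9), with 23 sites, 22 of them with reads and 18 with reads of all 3 baits. The bounds of the stretch are the first and the last of the repeat-like sites described next, so they were set by the capture values themselves. That its sites are often captured, and that the sites around it are captured less, follows in part from this choice and is given as a description.

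Sites were called repeat-like when captured in at least 3 of the 9 libraries of each bait that lay on another chromosome, since a site reached from 3 unrelated baits can be a repeated sequence to which reads of many origins align. Of all autosomal sites 196 met this rule, 61 on chromosome 6, 97 on 10 and 8 on 12, where only 2 baits could be asked. On the 16 autosomes without a bait 30 sites met it, and 15 of these were low-end sites, 0.144% of the ends' sites against 0.00467% of all. All 15 lay in the first 500 kb of chromosome 11, and no other low end held any. The stretch is the span that they bound. Asking for 5 libraries of each bait left 10 low-end sites, and asking for 2 reads per captured site left 12, all in the stretch. Asking for 1 library of each bait gave 195 low-end sites, 18 of them in the stretch; on the autosomes without a bait these were 1.21% of the ends' sites against 0.707% of all.

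The site captured most often lay at 3088240 bp and had 2187 reads in 25 of 27 libraries: 435 with Pparg, 1574 with Lpin1 and 178 with Ifng. The next, at 3032987 bp, had 1849 reads in 24 libraries. The sites at 3064539 and 3074214 bp were captured in 23 libraries each, with 1046 and 512 reads. The site at 3078155 bp had the most reads, 2647 in 19 libraries, of which 2438 came with Lpin1. Away from this stretch, the most libraries at which any site of the window was captured was 6.

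Within the stretch the captured share reached 87.0% of the 23 sites for Pparg (20 sites, day 2, replicate 1), 82.6% for Lpin1 (19 sites, day 0, replicate 1) and 82.6% for Ifng (19 sites, in replicate 1 of days 0 and 2). The fewest in 3T3-L1 were 4 sites for Pparg (day 6, replicate 2) and for Lpin1 (day 6, replicate 2), and 10 for Ifng in both day 6 libraries. In B cells 3, 17 and 9 sites were captured. The multiple of the stretch was 29.3 ± 11.2 for Pparg, 44.2 ± 18.9 for Lpin1 and 14.03 ± 3.19 for Ifng, and 13.05, 21.97 and 18.3 in B cells. A share cannot pass 100%, so a deep library has a lower ceiling for this ratio, and the 3 baits are not ranked by it here. These multiples describe sites chosen for their capture. The stretch took 45.5% to 100% of the window's reads per library and 3.03% to 23.4% of the reads of all low ends.

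The other 109 sites of the window, left after the sites chosen for high capture were taken out, had the bait order of the ends as a whole. Their multiple was 1.54 ± 0.864 for Pparg (0 to 3.07), 2.75 ± 1.06 for Lpin1 (0.744 to 4.15) and 0.400 ± 0.187 for Ifng (0.186 to 0.723). With the repeat-like sites left out, the whole chromosome 11 end stood at 2.11 ± 0.791 for Pparg, 2.71 ± 0.718 for Lpin1 and 0.494 ± 0.133 for Ifng. It remained a high end for the first 2 baits. For Ifng it stood at 0.956 ± 0.201 with all sites kept, near the autosomal level, and below it without the repeat-like sites. The ends together, without repeat-like sites, stood at 0.875, 1.38 and 0.659.

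**Figure D5:**
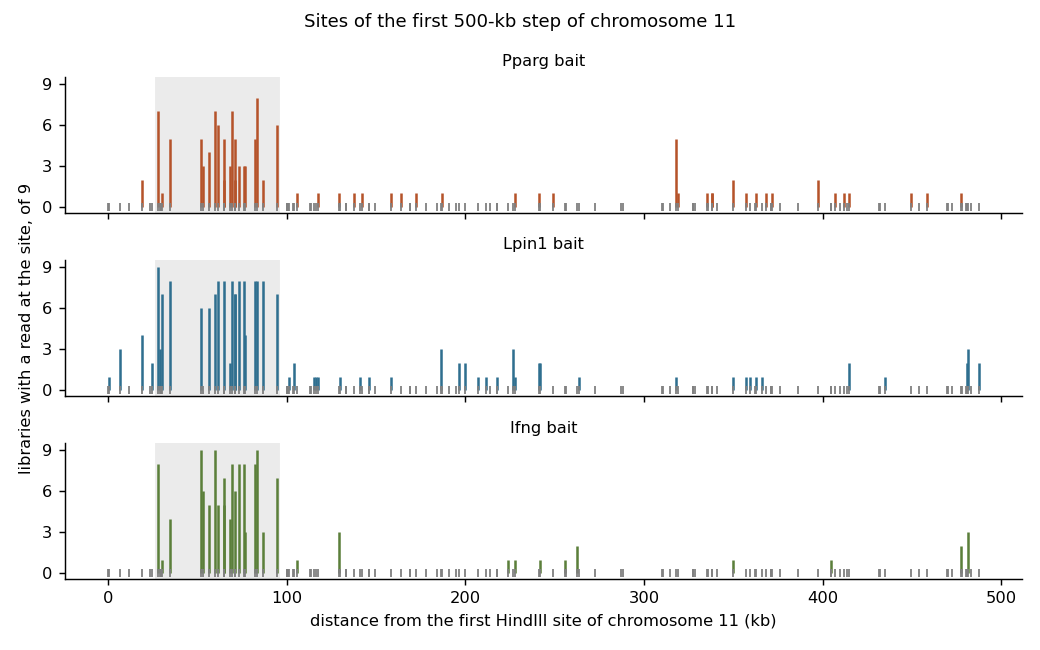
Number of libraries, of 9 per bait, with a read at each HindIII site of the first 500-kb step of chromosome 11 (vertical axis), by distance from its first HindIII site in kb (horizontal axis). Grey ticks mark all 132 sites and the shaded zone is the stretch of 66.8 kb. Tall lines of all 3 baits crowd the stretch, and sites outside it have a read in few libraries.

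Captured sites elsewhere in the ends were mostly met once. Without the stretch, 81.3% of low-end sites captured by Pparg in 3T3-L1 were captured in 1 of 8 libraries, against 80.9% on the rest of the autosomes. For Ifng the shares were 55.6% and 51.5%. For Lpin1 they were 76.2% and 80.9%, and 6.45% of captured low-end sites were met in at least 3 libraries, against 4.25% elsewhere. For Ifng 17.9% were met in at least 3 libraries, against 22.8% elsewhere. These shares move with the rate of capture, which differed between the ends and the rest: 1691 of 11825 Lpin1 end sites were ever captured in 3T3-L1, against 82792 of 719479 elsewhere, and 1704 of 11681 for Ifng, against 142826 of 716506. They are given as values, with no test.

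Over differentiation the pooled multiple kept its order of baits. Between days 0 and 6 it differed by -0.183 for Pparg (means 0.986 and 0.802), 0.198 for Lpin1 (1.32 and 1.52) and -0.138 for Ifng (0.754 and 0.617). The 2 libraries of day 6 did not overlap the 2 of day 0 for any bait. These pooled differences carry no test. The day 6 libraries also had the fewest captured sites of their bait by daily mean (7910 against 18449 at day 0 for Pparg), and the part of this in the difference was not tested. After thinning to equal read numbers the day 6 differences were -0.174, 0.268 and -0.151, again without overlap. Thinning sets the reads equal and not the captured sites, so it does not settle that question. With 2 libraries per day, a lack of overlap is a description and carries little weight. Days 1 and 2 overlapped day 0 for every bait before thinning. After it, day 2 of Lpin1 did not overlap day 0 (difference 0.128).

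Per window of 500 kb, edgeR called no low-end window between days. For Pparg, 28 of 72 low-end windows held enough captured sites to be tested, and 0 passed at days 1, 2 and 6, against 0% of 1935 windows each. An unadjusted p under 0.05 was met by 1, 2 and 2 of them. For Lpin1, 0 of 48 tested windows passed at each day, against 0% of 2226, and 0, 3 and 1 had such a p. For Ifng, 0 of 48 passed at each day, against 0% of 3967, and 2, 1 and 3 had such a p. The unadjusted counts of the 3 baits have no count over all windows beside them and are given as values alone. DESeq2 called 0 end windows as well in each of these contrasts. The smallest p among end windows at day 6 was at chromosome 9, 4.0 to 4.5 Mb, under Ifng (log2 difference -1.98 ± 0.66, adjusted p = 0.983). For Lpin1 it lay on chromosome 11, 4.5 to 5.0 Mb (1.45 ± 0.67, adjusted p = 0.643), and for Pparg at chromosome 5, 4.0 to 4.5 Mb (-2.75 ± 1.14, adjusted p = 0.710). The nearest to passing at day 1 were chromosome 15, 3.0 to 3.5 Mb, for Pparg (-1.59 ± 0.78, adjusted p = 0.983), chromosome 13, 3.5 to 4.0 Mb, for Lpin1 (1.59 ± 0.83, adjusted p = 0.934) and chromosome 1, 3.5 to 4.0 Mb, for Ifng (-0.91 ± 0.41, adjusted p = 0.996). At day 2 they were chromosome 11, 4.5 to 5.0 Mb, for Pparg (-1.08 ± 0.53, adjusted p = 0.971), chromosome 15, 3.0 to 3.5 Mb, for Lpin1 (-1.08 ± 0.48, adjusted p = 0.864) and chromosome 19, 4.0 to 4.5 Mb, for Ifng (1.44 ± 0.65, adjusted p = 0.996).

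The B cell line differed from 3T3-L1 in the pooled multiple, with 1 library and so no spread of its own. It was lower by 0.363 for Pparg (0.558 against 0.921), with the B cell library below all 8 3T3-L1 libraries. It was lower by 0.114 for Ifng and below all 8, though within their range after thinning (0.590, range 0.554 to 0.781). For Lpin1 it stood at the top of the 3T3-L1 range (1.54 against a highest of 1.54) and within it after thinning (1.55, range 1.20 to 1.76). By chromosome, the B cell library lay above all 8 3T3-L1 libraries at 1 of 18 ends, below them at 7 and within their range at 10 for Pparg. For Lpin1 it lay above at 4, below at 2 and within at 12, and for Ifng above at 1, below at 7 and within at 10. The same was not counted over all blocks of 2 Mb, so these counts are not read as a trait of the ends. Some of the Pparg values below the range rest on few B cell sites, 1 at the chromosome 15 end and 2 at that of chromosome 12. The chromosome 19 end under Pparg stood at 0.848 in B cells (5 of 582 sites), below the 3T3-L1 range of 1.18 to 5.20. Under Lpin1 the same end stood at 2.56, inside the range. The chromosome 11 end in B cells was 1.80 for Pparg, below its 3T3-L1 range, and 3.26 for Lpin1 and 1.01 for Ifng, inside theirs. The chromosome 10 end under Lpin1 stood at 1.45 in B cells (36 of 721 sites), above its 3T3-L1 range of 0.450 to 1.23. Others went against the pooled direction. The chromosome 1 end under Pparg stood at 0.677 in B cells, above its highest 3T3-L1 library (0.424), and the chromosome 6 end under Lpin1 at 1.12, below its lowest (1.36).

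In edgeR's fit, which assumes that the B cell library varies like the 3T3-L1 libraries, 0 of 28 low-end windows passed for Pparg, against 0% of all tested windows, and 3 had an unadjusted p under 0.05, as did 134 of all 1935 windows. For Lpin1 0 of 48 passed, against 0.225% of all, with 15 at such a p, as had 249 of all 2226. For Ifng 0 of 48 passed, against 0.454%, with 2 at such a p, as had 514 of all 3967. DESeq2 called 0 for each bait. The smallest p were at chromosome 10, 4.5 to 5.0 Mb, for Lpin1 (log2 difference 2.01 ± 0.58, adjusted p = 0.0777), chromosome 19, 3.5 to 4.0 Mb, for Pparg (0 of 151 sites in B cells, adjusted p = 0.634) and chromosome 17, 4.5 to 5.0 Mb, for Ifng (-2.34 ± 0.97, adjusted p = 0.312). As windows of 2 Mb, 1 of 17 tested ends passed for Lpin1, against 3.51% of 1139 windows, that of chromosome 10, higher in B cells by 1.19 ± 0.31 (log2, edgeR adjusted p = 0.0118). By the same test 0 of 17 passed for Pparg, against 2.34% of 1112, with 4 at an unadjusted p under 0.05. For Ifng 0 of 17 passed, against 6.93% of 1140, with 1 at such a p. Neither of these unadjusted counts has the count over all windows beside it, so they are given as values alone.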

How the data were processed

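The 15 samples hold 27 libraries. The authors deposited raw read counts per HindIII site, for 823355 sites of the genome. Bowtie and the build mm9 are named per the submitters' processing notes, and the Bowtie version, mapping filters and handling of PCR duplicates are not given in the sources used here. The replicate numbers come from the deposited names, and no label says whether libraries are separate cultures, so p-values measure only the spread between these libraries.

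Sites on the bait chromosome and the sex chromosomes were left out. Captured sites (1 or more reads) were summed over windows of 500 kb, and windows with a mean of at least 3 were fitted by edgeR 4.0.16 under R 4.3.3 (robust quasi-likelihood fit, TMM, 1 fit per bait with 5 groups and 1 fit of all 27 libraries for the bait contrasts). In the fit of all 27 libraries that mean ran over the 3 baits together, so a window could be kept through 1 bait alone. Benjamini-Hochberg adjustment ran over all tested windows with a threshold of 0.05. Fits were also run on simulated windows with changes put in. Those outcomes are not given here, so no power is stated for the contrasts without calls. Multiples pooled over the ends carry no test. Alternatives were DESeq2 1.42.0, no filter, 2 reads per captured site, reads in place of sites, windows of 2 Mb, limits of 4 and 10 Mb, thinning, the replicate block and leaving out each library. As added references, the rest of the same chromosomes and the 16 autosomes without a bait were tried after the data were seen. Same-numbered libraries of different days correlated in their deviations at 0.0912 to 0.143 (Pparg), -0.00273 to 0.303 (Lpin1) and -0.00259 to 0.129 (Ifng). The main fits did not take the numbers as pairs, but these mostly positive values do not exclude a shared source. The pooled multiple of replicate 1 lay above that of replicate 2 at every day for Ifng and at days 0, 1 and 2 for Pparg. For Lpin1 it went both ways.

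The members and all lists were chosen with earlier results of these data known. Chromosomes are named by the 3 highest and 3 lowest mean multiples per bait, and windows by smallest p, up to 5 among those passing, or by the smallest p where none passed. No mm9 sequence was used, so no site is shown by its letters. The RefSeq table is of GRCm38.p6 and gave gene names and order alone; predicted genes with Gm or LOC names were skipped.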

Additional observations from a re-analysis of the deposited data

Results flagged for a closer look

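In the low end of chromosome 14, 1 of the 8 3T3-L1 libraries stood apart from the others for each bait. Its multiple was 0.0432 for Pparg, 0.380 for Lpin1 and 0.0183 for Ifng, and the other 7 libraries were all at 0. These values rest on 1, 3 and 1 captured sites. Such a test was run on 24 groups of 8 libraries, and chance flags about 1 in 20 groups. That rate does not hold for these 3 groups: with 7 libraries at 0, any captured site sets a library apart.

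The change in the pooled multiple went opposite ways between baits. From day 0 to day 6 it was -0.183 for Pparg and -0.138 for Ifng, and 0.198 for Lpin1. From 3T3-L1 to B cells it was -0.363 for Pparg and -0.114 for Ifng, and 0.110 for Lpin1, where the B cell library passed the highest 3T3-L1 library only in the third decimal. These differences between baits were not tested.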

How the results depend on the processing

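With sites below 10 Mb the 3T3-L1 multiple was 0.758 for Pparg, 1.14 for Lpin1 and 0.879 for Ifng. As the median over chromosomes it was 0.743 for Pparg and 0.584 for Ifng. For Lpin1 it was 1.56 with reads and 1.58 over sites with a read in at least 1 library. The other 26 settings of the multiple moved it by less than 1 SD. Leaving out each library in turn moved the Pparg mean between 0.900 and 0.939, that of Lpin1 between 1.42 and 1.46, and that of Ifng between 0.661 and 0.692. Repeat-like low-end sites numbered 195 when 1 library of each bait was asked for.

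Pparg against Lpin1 called 2 of 44 end windows of 500 kb. This became 0 with DESeq2 (12 at an unadjusted p under 0.05), which gave many of the 44 windows no adjusted p, so these could not be called. It became 4 with 2 reads per captured site, 4 without repeat-like sites and 10 with windows of 2 Mb. With the replicate block it became 9, though the numbers share no stated source. It was 1 to 7 without each library in turn: 1 without Pparg day 6 replicate 1, or without replicate 1 of Lpin1 day 0, 2 or 6, 4 without Pparg day 0 replicate 2, Lpin1 day 1 or 6 replicate 2, or Ifng day 0 or 2 replicate 1, 5 without Ifng B cells, 6 without Pparg B cells or Ifng day 0 replicate 2, and 7 without Pparg day 0 replicate 1 or Pparg day 2 replicate 2. Ifng against both called 12 with 2 reads per captured site, 15 with reads and 12 with windows of 2 Mb, and 22 to 31 without each library. For Lpin1, B cells against 3T3-L1 called 1 end window with 2 reads per captured site and 1 with windows of 2 Mb. The replicate block changed no other count of end windows by over 1.5 times. Deviations of same-numbered libraries correlated above 0 in 6 of 6, 5 of 6 and 5 of 6 pairs of days.

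Depth limits the windows: 44 low-end windows of the Pparg bait held too few captured sites to be tested.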
